A study of Mus musculus with 6 samples.

Results

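The genes described here are 32 members of the ATF4 amino acid stress response, chosen by gene symbol. Of these, 30 were each read by 1 probe set naming a single gene, out of 19933 genes measured that way, while Pycr1 and Gdf15 were not analysed here. ATF4 is a transcription factor whose messenger RNA is translated efficiently when a stress kinase phosphorylates the initiation factor eIF2, for example when amino acids run short or unfolded protein accumulates in the endoplasmic reticulum. It switches on genes for amino acid synthesis, amino acid import, tRNA charging and feedback control. In the small intestine, epithelial cells take up dietary amino acids and also consume them for their own rapid renewal.

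RNA of primary epithelial cells of the mouse jejunum was hybridised to Affymetrix Gene 1.0 ST arrays, 1 array per animal. The 3 arrays labelled transgenic came from mice of genotype TRE-MSI2::R26-M2rtTA, in which a tetracycline-responsive MSI2 transgene is combined with the M2rtTA transactivator at the Rosa26 locus. The 3 control arrays came from R26-M2rtTA mice, which carry the transactivator without the transgene. Both groups drank doxycycline for 24 hours, so the drug and the transactivator are common to all 6 animals. Rosa26 is active in most cell types, so that allele does not restrict induction to the epithelium. The ages of the mice were not stated in the labels.

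The labels were checked on the Musashi genes, which encode RNA-binding proteins. Msi1 averaged 13.26 in the arrays labelled transgenic and 7.60 in controls on the log2 scale (adjusted p = 0.000818), whereas Msi2 overlapped, with 11.23, 10.58 and 11.44 in the arrays labelled transgenic against 11.30, 9.53 and 9.32 in controls (adjusted p = 0.257). The Msi2 log2 fold change was 1.03 with all arrays and 1.66 without control replicate 1, where it passed (adjusted p = 0.00958). With all arrays, Msi1 separated the groups and Msi2, the gene named in the genotype, did not, so the check left the labelled transgene unresolved. The reason was not tested. Control replicate 1 thus had an Msi2 level within the range of the arrays labelled transgenic, and all directions below are between arrays as labelled. It also stood apart from the other controls over all probe sets, with correlations of 0.981 and 0.982 against 0.996 between the other controls. Of 9 general epithelial markers 2 rose and 2 fell (with the replicate number as a block in the fit, 1 rose and 2 fell), and their mean level was 12.33 to 12.51 in the arrays labelled transgenic and 12.36 to 12.46 in controls. Defining genes of pancreatic acinar cells and endothelium had mean levels between 5.47 and 5.63, against 4.07 to 5.06 for probe sets of sex-specific genes in the sex that lacks them. Of 11 myeloid markers 2 rose and 0 fell, and of 7 mast cell markers 0 rose and 1 fell. Among 8 B and plasma cell, 10 stroma and muscle, 7 goblet and 6 Paneth cell markers 0 passed. Under the replicate block 3 myeloid markers rose and 2 goblet markers fell. Transcripts of intraepithelial lymphocytes were lower, with 11 of 15 markers falling (12 under the replicate block, 7 with sex as a block) and a summed linear signal of 1370 to 2960 in the arrays labelled transgenic against 6260 to 9780 in controls. Of 7 crypt base markers 3 fell (4 under the replicate block), with a summed signal of 3560 to 4950 against 9730 to 10900 in controls. Of 10 enterocyte markers 0 passed (7 fell with the replicate number as a block), with a summed signal of 36700 to 81800 against 59000 to 109000 in controls. Over all genes 8.97% rose and 9.65% fell with all arrays. These shares were 12.7% and 13.1% under the replicate block, and 5.36% and 5.47% with sex as a block. The part of these cell types in the results below was not tested, and in such mixed samples fewer cells of a type cannot be told apart from less RNA per cell.

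The ATF4 response genes were mostly higher in the arrays labelled transgenic. Of the 30 measured members, 17 rose and 0 fell at an adjusted p under 0.05 in limma, which is 56.7% of them, where 8.97% of all genes rose and 9.65% fell. At an unadjusted p under 0.05 the counts were 21 and 0, where 16.9% of all genes were higher and 16.3% lower. At an adjusted p under 0.01, Stc2 and Vldlr rose, as did 1.98% of all genes. The median log2 fold change, arrays labelled transgenic minus controls, was 1.12 for the members and 0.02 for all genes. Of the 17 risers, 16 rose at least 2-fold, as did 3.58% of all genes. In 22 members (73.3%) every array labelled transgenic lay above every control, as in 19.5% of all genes, and in 0 members every one lay below, as in 17.5% of all genes. The mean was lower in the arrays labelled transgenic in 1 member, Got1.

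**Figure D1:**
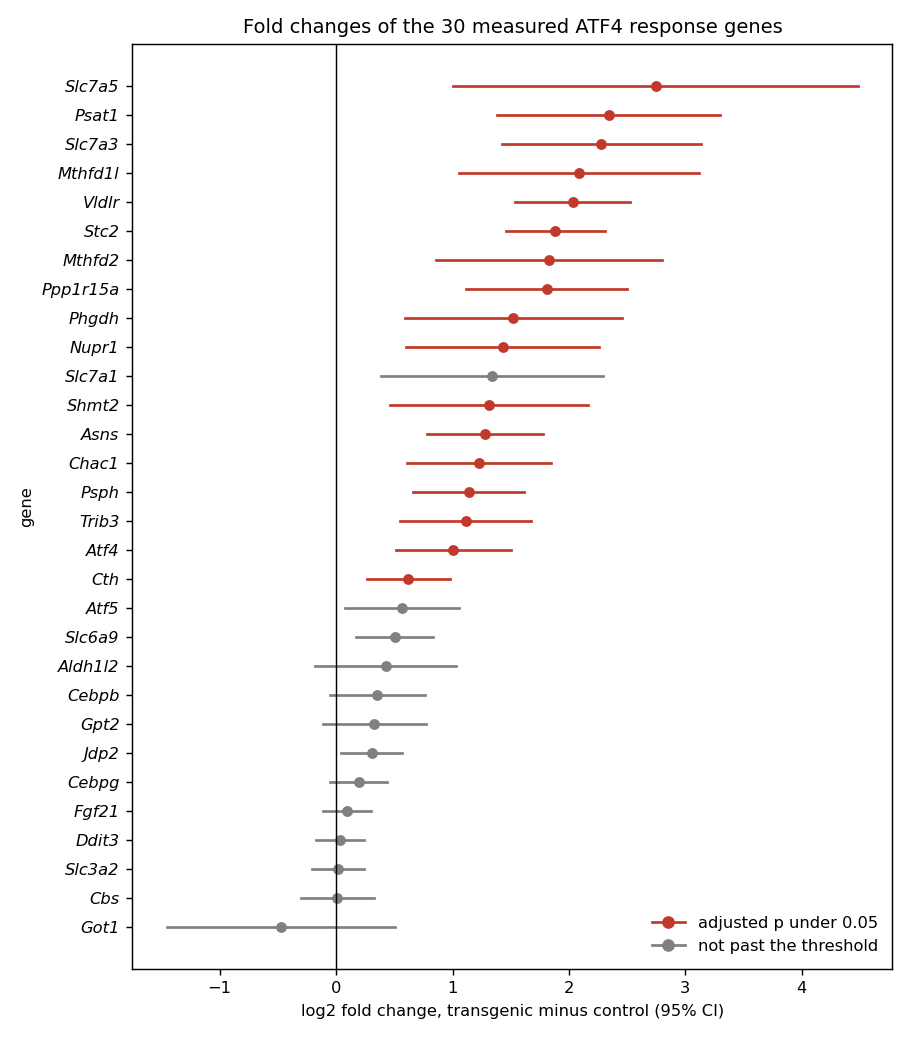
Log2 fold change (arrays labelled transgenic minus controls, x axis) of each measured member, with its 95% confidence interval from limma, ordered by size. Red marks the 17 members with an adjusted p under 0.05, from Slc7a5 at 2.74 down to Cth at 0.62, and grey the other 13, of which Got1 alone lies below 0.

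How many members passed depended strongly on single arrays. Without control replicate 1 there were 21, the same 17 with Aldh1l2, Atf5, Slc6a9 and Slc7a1 in addition (over all genes 13.4% rose and 14.4% fell). Without control replicate 2 only Stc2 and Vldlr passed, without control replicate 3 these and Asns, and 2.39% of all genes rose in each of these fits. Without transgenic replicate 1 the 4 that passed were Slc7a3, Ppp1r15a, Stc2 and Vldlr (background 3.31%), and without transgenic replicate 3 they were Ppp1r15a, Chac1, Stc2 and Vldlr (background 2.62%). Without transgenic replicate 2 the count was 17 (background 11.0%), with Gpt2 and Slc6a9 in place of Cth and Slc7a5. With sex entered as a block, 9 members rose (Psat1, Psph, Mthfd1l, Asns, Slc7a3, Atf4, Ppp1r15a, Stc2 and Vldlr) while 5.36% of all genes rose and 5.47% fell. With the replicate number as a block 19 rose, Slc6a9 and Slc7a1 in addition to the 17, while 12.7% of all genes rose and 13.1% fell. Of the animals, 1 of 3 labelled transgenic and 2 of 3 controls were female by their Xist and Y-linked transcripts. The median log2 fold change of the members stayed between 1.00 and 1.23 with any 1 array left out. Of the 17 risers, 15 lost their call in at least 1 of these fits. Below, a failing adjusted p given for 1 array left out is the gene's highest over these fits, and its call was lost in others too.

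The proximal promoters of the members are shown because ATF4 binds composite sites, known as C/EBP-ATF response elements, whose core reads TGATGNAA. Windows of 300 bases, from 250 before to 50 after each annotated start, were taken from RefSeq (GRCm38.p6) and held 28 of the 32 members. The core was searched on both strands and was present in 9 of these 28 (32.1%), against 4.51% of the 27025 genes in the table. Among members that rose it was found in 5 of 14, and among measured members that did not pass in 3 of 12. Of all genes that rose, 4.12% had it. A match is a description of the letters and not evidence of binding. Each match is printed 5′ to 3′ on the strand that reads TGATGNAA, with the core in capitals and 10 flanking bases on each side.
Asns (chr6:7693215-7693242, minus strand): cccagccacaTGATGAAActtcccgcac
Chac1 (chr2:119351039-119351066, minus strand): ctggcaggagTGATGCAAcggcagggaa
Nupr1 (chr7:126625563-126625590, plus strand): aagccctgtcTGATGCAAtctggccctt
Trib3 (chr2:152344029-152344056, plus strand): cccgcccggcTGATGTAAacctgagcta
Vldlr (chr19:27216810-27216837, minus strand): ctaggagcgcTGATGCAActattgctgc
Fgf21 (chr7:45615612-45615639, plus strand): cctggacggaTGATGCAAtgggggggtc
Got1 (chr19:43524690-43524717, plus strand): gaggcttgtaTGATGCAAccaatgcaat
Jdp2 (chr12:85599373-85599400, plus strand): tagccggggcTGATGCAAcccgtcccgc
Pycr1 (chr11:120643834-120643861, minus strand): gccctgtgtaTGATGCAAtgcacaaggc
The first 5 are members that rose, Fgf21, Got1 and Jdp2 did not pass, and Pycr1 was not measured. In 7 of the 9 windows the core read TGATGCAA, in Asns TGATGAAA and in Trib3 TGATGTAA. The Asns core began 23 bases before the start and that of Jdp2 33 bases before it. Trib3 alone had its core after the start, from transcribed base 15. Chac1 and Vldlr had theirs at 193 and 200 bases upstream.

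The whole windows of a biosynthetic, a degradative and a receptor gene that rose are given on the strand of the gene, with the core in capitals. In Chac1 and Vldlr the core lies on the opposite strand, so the capitals show its complement.
Asns (chr6:7693160-7693459, minus strand): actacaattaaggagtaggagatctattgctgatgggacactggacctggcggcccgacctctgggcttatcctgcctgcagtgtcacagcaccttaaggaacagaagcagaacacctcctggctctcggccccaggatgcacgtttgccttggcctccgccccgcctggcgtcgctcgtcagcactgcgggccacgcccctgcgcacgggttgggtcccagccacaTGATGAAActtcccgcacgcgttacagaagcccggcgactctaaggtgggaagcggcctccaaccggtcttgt
Chac1 (chr2:119350992-119351291, plus strand): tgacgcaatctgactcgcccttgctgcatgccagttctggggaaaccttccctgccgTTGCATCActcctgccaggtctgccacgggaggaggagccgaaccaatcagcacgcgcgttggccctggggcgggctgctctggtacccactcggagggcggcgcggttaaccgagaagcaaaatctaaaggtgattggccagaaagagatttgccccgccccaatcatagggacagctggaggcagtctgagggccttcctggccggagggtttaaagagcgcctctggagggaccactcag
Vldlr (chr19:27216770-27217069, plus strand): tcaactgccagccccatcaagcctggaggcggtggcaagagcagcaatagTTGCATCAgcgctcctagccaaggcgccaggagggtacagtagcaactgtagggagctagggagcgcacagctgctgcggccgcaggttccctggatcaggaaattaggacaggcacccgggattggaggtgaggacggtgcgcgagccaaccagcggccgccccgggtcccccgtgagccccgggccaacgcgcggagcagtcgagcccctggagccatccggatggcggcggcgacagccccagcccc

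Atf4 itself encodes the factor that drives the response, and its transcript rose. It had 10.53, 9.93 and 10.48 in the arrays labelled transgenic, against 9.59, 9.11 and 9.23 in controls. The groups did not overlap, and replicate 1 was the highest in each. The log2 fold change was 1.00 ± 0.20 (SE, adjusted p = 0.0234 in limma), a 2.01-fold rise. Atf4 did not pass in 4 of the fits with 1 array left out (highest adjusted p = 0.0929, without transgenic replicate 3). Of the 7 transcription factors among the members, the other one to rise was Nupr1, a small stress-induced chromatin protein gene. It had 10.93, 9.89 and 10.41 in the arrays labelled transgenic and 9.56, 8.75 and 8.64 in controls, a log2 fold change of 1.43 ± 0.34 (adjusted p = 0.0365, and 0.128 without control replicate 3). The arrays did not overlap, but the lowest array labelled transgenic lay close to the highest control.

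Ddit3, which encodes the pro-apoptotic factor CHOP and is a classical ATF4 target, showed almost identical levels. It had 8.02, 7.89 and 8.13 in the arrays labelled transgenic, against 7.96, 7.98 and 7.99 in controls. The log2 fold change of 0.03 had a 95% confidence interval of -0.17 to 0.24 (adjusted p = 0.841 in limma). The interval thus leaves no room for a rise of the size seen for Atf4 in this probe set. Cebpg, a dimer partner of ATF4, was at 0.19 (interval -0.05 to 0.44), and Cebpb, a related bZIP factor, at 0.35 (interval -0.05 to 0.76), neither past the threshold. Jdp2, a repressor of the AP-1 family, was at 0.31, and its groups did not overlap (adjusted p = 0.102). Atf5, a factor induced by eIF2 phosphorylation, was at 0.57 ± 0.20 (SE, adjusted p = 0.108). Its arrays labelled transgenic were tightly grouped at 7.50, 7.57 and 7.51, while the controls were spread over 7.41, 6.87 and 6.60. Without control replicate 1 Atf5 passed (adjusted p = 0.00607).

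Most enzymes of serine synthesis and of the mitochondrial folate cycle rose. These enzymes make serine from a glycolytic intermediate and pass its carbon to folate for nucleotide synthesis. Of 7 measured, 6 rose, with a median log2 fold change of 1.52 for the 7. Psat1, the aminotransferase of serine synthesis, had 10.91, 10.09 and 10.70 in the arrays labelled transgenic, against 9.05, 7.95 and 7.68 in controls. Every array labelled transgenic exceeded every control by at least 1 log2 unit, and the log2 fold change was 2.34 ± 0.40 (SE, adjusted p = 0.0149 in limma). Phgdh, the first enzyme of the pathway, had 9.34, 8.53 and 9.27 against 8.30, 7.26 and 7.02 in controls, a log2 fold change of 1.52 ± 0.38 (adjusted p = 0.0420). Its lowest array labelled transgenic was only slightly above control replicate 1. Psph, the phosphatase of the last step, had 8.14, 7.69 and 8.39 against 7.06, 6.72 and 7.02 in controls. Its controls were close together, and it rose by 1.14 ± 0.20 on the log2 scale (adjusted p = 0.0156).

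On the mitochondrial side, Mthfd1l, which releases formate from the organelle, had 9.68, 9.01 and 9.53 in the arrays labelled transgenic and 8.28, 6.91 and 6.78 in controls. It rose by 2.08 ± 0.42 (SE, adjusted p = 0.0235 in limma), and the groups were separate although control replicate 1 stood well above the other controls. Mthfd2, the methylenetetrahydrofolate dehydrogenase, had 10.66, 9.89 and 10.59 against 9.36, 8.35 and 7.95 in controls, a log2 fold change of 1.83 ± 0.40 (adjusted p = 0.0284). Shmt2, which splits serine into glycine and a one-carbon unit, had 10.39, 9.73 and 10.21 against 9.55, 8.45 and 8.39 in controls, a log2 fold change of 1.31 ± 0.35 (adjusted p = 0.0486). Both showed the same order of arrays as Mthfd1l. Aldh1l2, which oxidises formyl-folate to carbon dioxide in mitochondria, was the exception at 0.42, with overlapping groups (adjusted p = 0.304, and 0.0223 without control replicate 1). In its case control replicate 1, at 6.24, lay among the values of 6.28, 5.93 and 6.17 of the arrays labelled transgenic. All 6 risers of this group lost their call with at least 1 array left out, at adjusted p values of up to 0.156 for Shmt2 without control replicate 3.

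**Figure D2:**
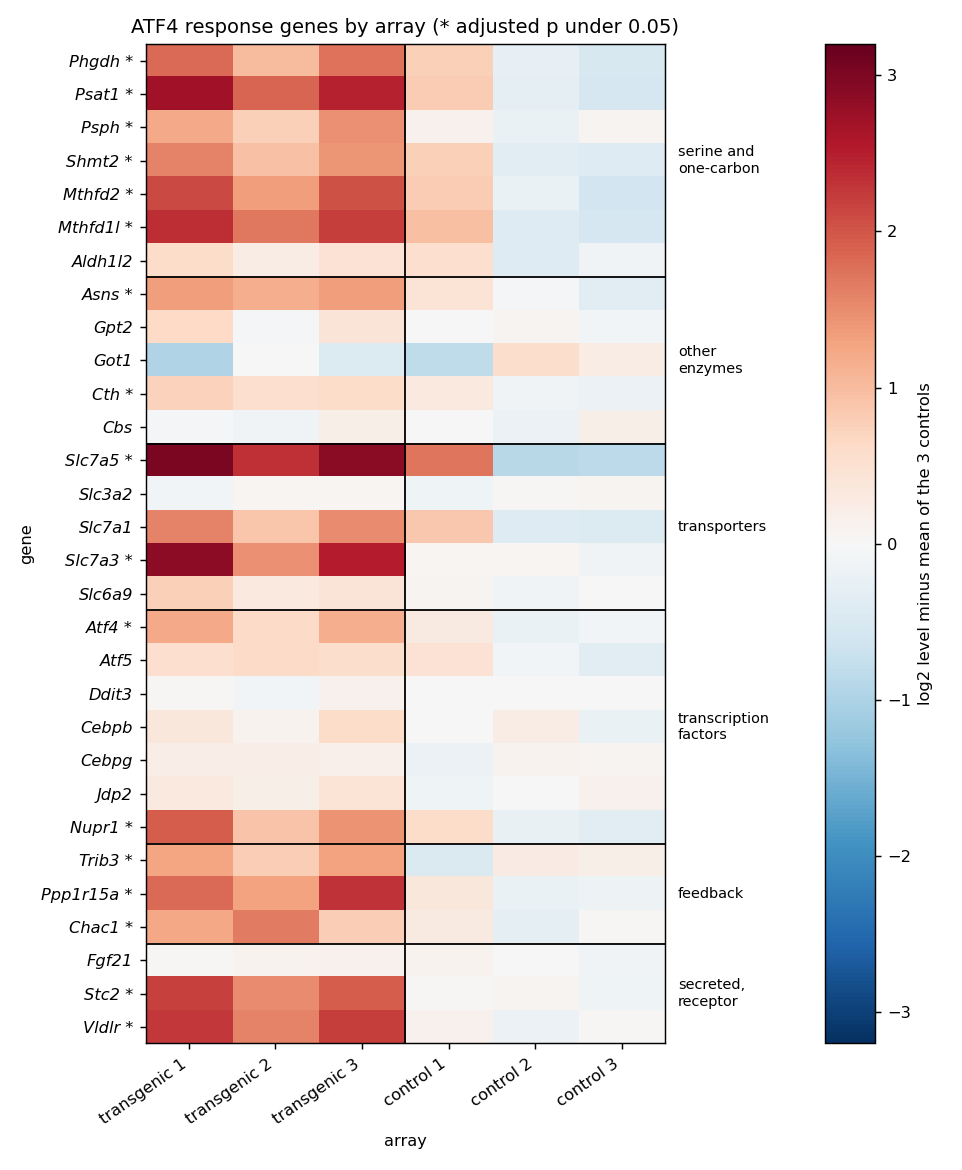
Each row is a member and each column an array, with the arrays labelled transgenic on the left. Colour gives the log2 level minus the mean of the 3 controls for that gene, horizontal lines separate the functional groups, and an asterisk marks an adjusted p under 0.05. The serine and one-carbon genes show transgenic replicate 2 as the palest array of its group and control replicate 1 as the reddest control.

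The remaining amino acid enzymes were divided. Asns, the asparagine synthetase whose promoter core is printed above, had 13.05, 12.87 and 13.04 in the arrays labelled transgenic and 12.15, 11.64 and 11.34 in controls. The arrays labelled transgenic were nearly equal, and the log2 fold change was 1.28 ± 0.21 (SE, adjusted p = 0.0131 in limma, and 0.0608 without transgenic replicate 3). Cth, which makes cysteine from cystathionine, had 10.97, 10.78 and 10.83 against 10.54, 10.13 and 10.04 in controls. It showed the smallest rise among the members that passed, 0.62 ± 0.15 (adjusted p = 0.0358, and 0.126 without control replicate 2). Cbs, the enzyme before it in the same pathway, was at 0.01 with an interval of -0.30 to 0.33. Gpt2, the mitochondrial alanine aminotransferase, was at 0.33 (adjusted p = 0.278). Got1, the cytosolic aspartate aminotransferase, had 10.69, 11.63 and 11.21 in the arrays labelled transgenic against 10.84, 12.21 and 11.89 in controls. Its log2 fold change was -0.47 with an interval of -1.45 to 0.50, and replicate 1 was the lowest array of both groups.

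Of the 5 amino acid transporters 2 rose, including the member with the largest fold change. Slc7a5, the light chain of the large neutral amino acid exchanger LAT1, had 12.36, 11.67 and 12.24 in the arrays labelled transgenic. In controls it had 11.06, 8.46 and 8.50, so control replicate 1 lay far above its group and below every array labelled transgenic. The log2 fold change was 2.74 ± 0.72 (SE, adjusted p = 0.0463 in limma), or 3.60 without control replicate 1 (adjusted p = 0.00140), and the call was lost with any other single array left out (adjusted p of up to 0.149). Slc3a2, the heavy chain with which LAT1 is assembled at the membrane, had 12.89, 13.03 and 13.03 against 12.84, 13.00 and 13.06 in controls. Its log2 fold change was 0.01 with an interval of -0.21 to 0.24, which lies below the interval of Slc7a5, 1.01 to 4.48. The difference between the chains was not itself tested.

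The cationic amino acid transporters Slc7a1 and Slc7a3, which import arginine and lysine, both had higher means. Slc7a3 had 8.39, 6.97 and 8.04 in the arrays labelled transgenic against 5.59, 5.58 and 5.40 in controls, a log2 fold change of 2.28 ± 0.35 (SE, adjusted p = 0.0118 in limma, and 0.0579 without control replicate 3). Its controls were just above the range of the silent sex-specific probe sets, so the size of this rise is uncertain. Slc7a1 had 11.07, 10.36 and 10.99 against 10.32, 9.06 and 9.02 in controls. Its log2 fold change of 1.34 missed the threshold (adjusted p = 0.0635) but met it under the replicate block (adjusted p = 0.0188) and without control replicate 1 (adjusted p = 0.00556). Slc6a9, a glycine transporter, was just outside the threshold at 0.50 (adjusted p = 0.0508), and passed with the replicate block (adjusted p = 0.0220) and without control replicate 1 (adjusted p = 0.0473). Just inside it were Shmt2 (adjusted p = 0.0486) and Slc7a5.

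All 3 feedback and stress regulators rose. Ppp1r15a, which encodes GADD34, the phosphatase subunit that restores eIF2 to its active state, had 8.0, 7.47 and 8.50 in the arrays labelled transgenic against 6.54, 5.98 and 6.03 in controls. The groups were well separated, and the log2 fold change was 1.81 ± 0.29 (SE, adjusted p = 0.0124 in limma, and 0.0598 without control replicate 3). Trib3, a pseudokinase that restrains ATF4 activity, had 8.06, 7.59 and 8.09 against 6.34, 7.05 and 7.0 in controls. It rose by 1.11 ± 0.23 (adjusted p = 0.0257, and 0.10 without transgenic replicate 3), and control replicate 1 was here the lowest control instead of the highest. Chac1, which degrades glutathione, had 8.59, 9.01 and 8.13 against 7.64, 7.03 and 7.38 in controls. It rose by 1.23 ± 0.26 (adjusted p = 0.0252, and 0.0911 without control replicate 3) and was the 1 riser in which transgenic replicate 2 was not the lowest array of its group. Ddit3, which is commonly induced together with these genes under endoplasmic reticulum stress, did not pass.

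Among the secreted and receptor members, 2 of 3 measured rose. Stc2, a secreted glycoprotein hormone of the stanniocalcin family, had 8.44, 7.78 and 8.21 in the arrays labelled transgenic against 6.31, 6.35 and 6.13 in controls. Vldlr, the very low density lipoprotein receptor, had 9.27, 8.60 and 9.22 against 7.15, 6.81 and 7.05 in controls. In both genes the lowest array labelled transgenic was more than 1 log2 unit above the highest control. The log2 fold changes were 1.88 ± 0.18 for Stc2 and 2.03 ± 0.20 for Vldlr (SE, adjusted p = 0.00333 and 0.00399 in limma). They were the only members to pass in every fit with 1 array left out, with highest adjusted p values of 0.0242 and 0.0272, both without control replicate 3. Fgf21, a stress hormone made chiefly by liver, had 5.18, 5.26 and 5.29 against 5.25, 5.14 and 5.05 in controls. These values lie at or just above the upper end of the silent probe sets, so a transcript was not clearly detectable in either group, although its window holds the promoter core.

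**Figure D3:**
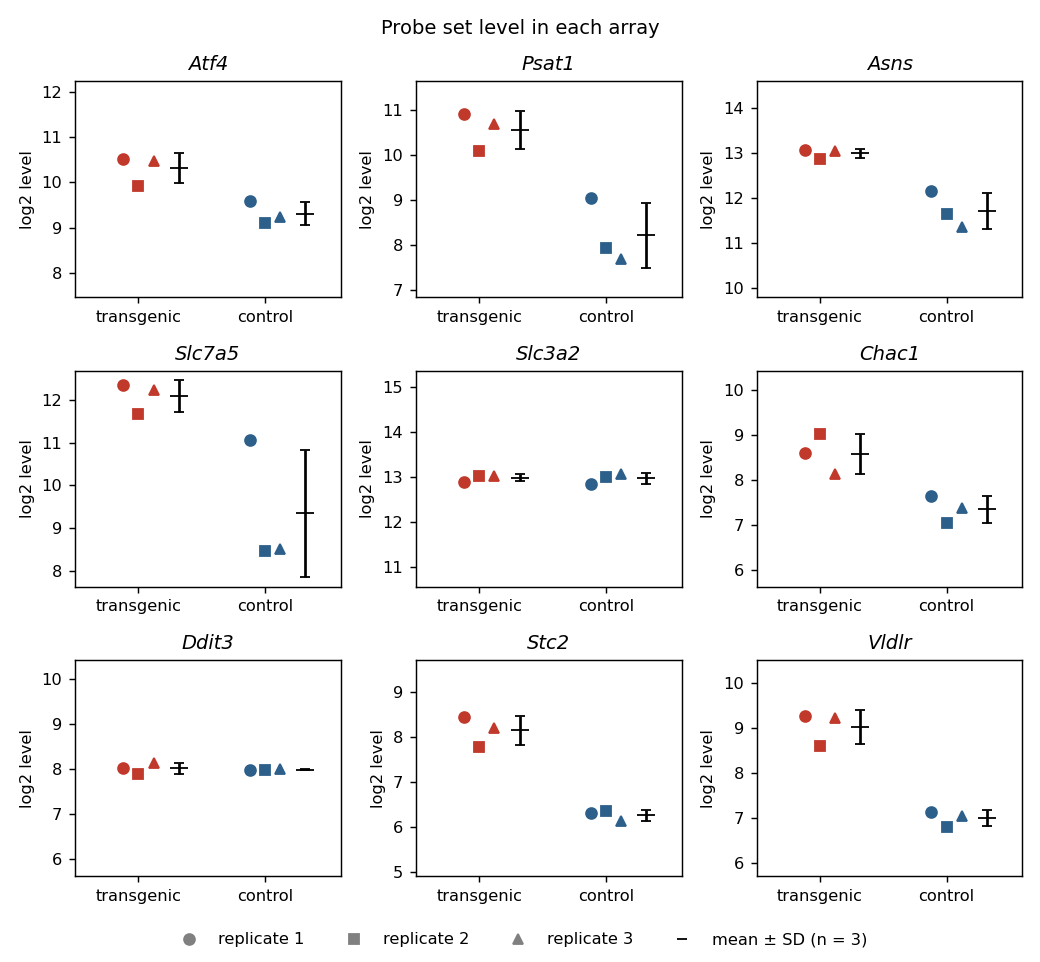
Log2 level of 9 members in each array, with arrays labelled transgenic in red to the left of controls in blue. Symbols mark the replicate number, black bars show the mean ± SD (n = 3). Slc3a2 and Ddit3 are level across groups, Stc2 and Vldlr are widely separated, and control replicate 1 of Slc7a5 at 11.06 stands apart from 8.46 and 8.50.

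The median level of the members differed between arrays of the same group. Relative to the control mean, it was 1.23, 0.77 and 1.23 in transgenic replicates 1, 2 and 3, and 0.21, -0.15 and -0.12 in control replicates 1, 2 and 3. Over all genes the same medians lay between -0.01 and 0.05. The spread was wider in the serine and one-carbon group, at 1.82, 1.00 and 1.74 in the arrays labelled transgenic and 0.77, -0.28 and -0.51 in controls. The median of the 3 feedback genes was 1.26, 1.29 and 1.29 in the arrays labelled transgenic against 0.29, -0.20 and 0.03 in controls, although transgenic replicate 2 was the lowest of its group in Trib3 and Ppp1r15a and the highest in Chac1. Control replicate 1 was the highest control in 15 of the 17 risers and in 59.1% of all genes that rose. Transgenic replicate 2 was the lowest of its group in 16 of the 17 and in 75.6% of all genes that rose.

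Upstream of ATF4, the transcripts of the 4 eIF2 kinases did not pass with all arrays. Eif2ak4, which encodes the amino acid sensor GCN2, was at 0.22 (interval -0.21 to 0.65), and Eif2ak3, which encodes the endoplasmic reticulum sensor PERK, at 0.03 (interval -0.54 to 0.60). Eif2ak1, the heme-regulated kinase, was at -0.25 (interval -0.75 to 0.25), and Eif2ak2, the kinase activated by double-stranded RNA, at 0.07 (interval -0.58 to 0.72). Without control replicate 1, Eif2ak1 fell, with a log2 fold change of -0.48 (adjusted p = 0.0278 in limma), and Eif2ak2 rose by 0.38 (adjusted p = 0.0471). Kinase activity is not read by such arrays. Of 15 measured genes of eIF2 and its regulators, 4 rose and 0 fell in limma (unadjusted p under 0.05 in 7 and 0). Over all genes 8.97% rose and 9.65% fell, and at an unadjusted p under 0.05, 16.9% were higher and 16.3% lower. Impact, an inhibitor of GCN2 activation, had 10.92, 10.17 and 10.46 in the arrays labelled transgenic against 8.95, 7.43 and 7.54 in controls, a log2 fold change of 2.55 ± 0.44 (SE, adjusted p = 0.0155, and 0.0666 without control replicate 3). The other risers were Eif2s2, the beta subunit of eIF2, at 1.31, and Eif2b3 and Eif2b2, subunits of its exchange factor, at 1.47 and 0.59. With 1 array left out, Eif2s2 lost its call in 3 fits and Eif2b3 and Eif2b2 in 4. The list counted 8 risers and 1 fall, that of Eif2ak1, without control replicate 1, 6 risers under the replicate block and 3 with sex as a block. Over all genes 13.4% rose and 14.4% fell without control replicate 1. The share that rose was 12.7% under the replicate block and 5.36% with sex as a block.

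Of 21 further reported ATF4 targets measured, 12 rose and 2 fell, with a median log2 fold change of 0.83. Under the replicate block 14 rose and 2 fell, and with sex as a block 8 rose and 1 fell. Over all genes 8.97% rose and 9.65% fell with all arrays. These shares were 12.7% and 13.1% under the replicate block, and 5.36% and 5.47% with sex as a block. Slc7a11, the cystine importer, had 10.85, 10.03 and 10.40 in the arrays labelled transgenic against 6.07, 5.28 and 5.33 in controls. Its log2 fold change was 4.87 (adjusted p = 0.00109 in limma), and since the controls other than replicate 1 were just above the range of the silent probe sets, the size of this rise is uncertain. Eif4ebp1, a repressor of cap-dependent translation, rose by 1.75 ± 0.15 (SE, adjusted p = 0.00259 in limma). It had 10.71, 10.31 and 10.79 in the arrays labelled transgenic against 8.85, 8.97 and 8.73 in controls, and the groups were far apart. Sesn2, a leucine-sensing inhibitor of mTORC1, rose by 1.31, Ero1a, an oxidase of the endoplasmic reticulum, by 1.02, and the autophagy receptor gene Sqstm1 by 1.00. With 1 array left out, Ero1a lost its call in 3 fits, and Sesn2 and Sqstm1 in 0. The 2 that fell were Aldh18a1, which starts proline synthesis, with a log2 fold change of -1.24 ± 0.15 (adjusted p = 0.00589), and Klhl24, an adaptor of a ubiquitin ligase, with -1.19 ± 0.32 (adjusted p = 0.0487, and 0.155 without control replicate 2). Klhl24 was chosen after its values were seen.

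The tRNA synthetases attach amino acids to their tRNAs, and several of the cytosolic ones are known ATF4 targets in mammals. Of 18 cytosolic synthetases 8 rose and 0 fell (unadjusted p under 0.05 in 11 and 0), with a median log2 fold change of 0.55. Wars, for tryptophan, rose by 0.81 ± 0.11, Gars, for glycine, by 0.78, and Hars, for histidine, by 1.09 (adjusted p = 0.00915, 0.0129 and 0.0159 in limma). Rars rose by 0.71, Tars by 0.99 and Sars by 0.45. With 1 array left out, Tars lost its call in 5 fits, Gars, Hars, Rars and Sars in 4 and Wars in 0. Without control replicate 1, 15 of the 18 rose, under the replicate block 11, and with sex as a block 5. Over all genes 13.4%, 12.7% and 5.36% rose in these fits, in that order. With all arrays 8.97% of all genes rose, and 16.9% were higher at an unadjusted p under 0.05. Of 16 mitochondrial synthetases, 1 rose and 6 fell, with a median of -0.21. Under the replicate block 2 rose and 6 fell, and with sex as a block 1 rose and 4 fell. Over all genes 9.65% fell with all arrays, 13.1% under the replicate block and 5.47% with sex as a block. Cars2, Tars2 and Vars2 had log2 fold changes of -0.54, -0.61 and -0.78, and Pars2 and Fars2 of -0.47 and -0.39. With 1 array left out, Fars2 lost its call in 4 fits, Vars2 and Pars2 in 3, and Cars2 and Tars2 in 0. Wars2, the mitochondrial tryptophan enzyme, had 9.28, 8.73 and 9.08 in the arrays labelled transgenic against 7.66, 7.70 and 7.76 in controls and was the 1 that rose, by 1.33 ± 0.15 (adjusted p = 0.00510). The difference between the compartments was not itself tested.

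**Figure D4:**
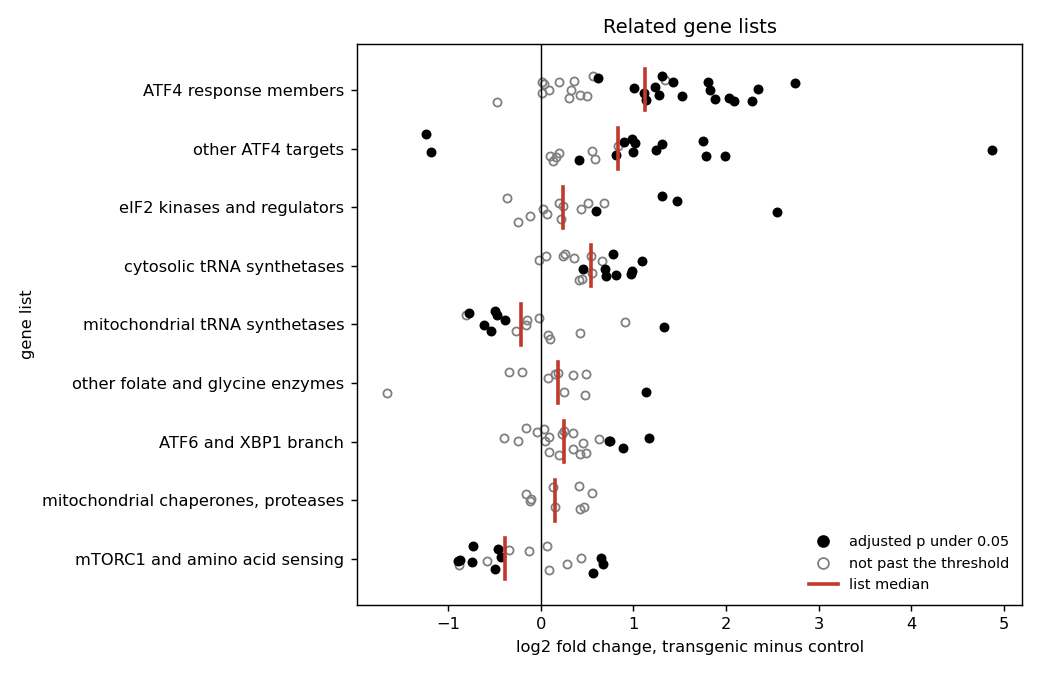
Log2 fold change (arrays labelled transgenic minus controls, x axis) of every measured gene in 9 lists, 1 row per list, with vertical scatter only to separate points. Filled points have an adjusted p under 0.05 and red bars give list medians, from 1.12 for the ATF4 response members to -0.38 for mTORC1 and amino acid sensing.

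In neighbouring pathways the counts varied between lists. Over all genes 8.97% rose and 9.65% fell in limma, and at an unadjusted p under 0.05, 16.9% were higher and 16.3% lower. Of 11 other folate and glycine enzymes, Mthfd2l, a second mitochondrial methylenetetrahydrofolate dehydrogenase, rose by 1.14 ± 0.14 (SE, adjusted p = 0.00611 in limma) and 0 fell (unadjusted p under 0.05 in 3 higher and 1 lower). With the replicate block 2 rose and 2 fell. Gldc, of the glycine cleavage system, was at 0.25 and did not pass. In the ATF6 and XBP1 branch of the unfolded protein response, 4 of 21 rose and 0 fell (unadjusted p under 0.05 in 10 and 0), with a median of 0.25. These were the chaperone genes Dnajb9 at 1.17 and Hspa5 at 0.73, the sensor Atf6 at 0.89 and Creld2 at 0.74. With 1 array left out, Atf6 and Creld2 lost their call in 4 fits, Hspa5 in 3 and Dnajb9 in 0. Under the replicate block 6 rose, with sex as a block 2, and without control replicate 1, 6 rose and 1 fell. Of 9 genes of mitochondrial chaperones and proteases 0 passed (unadjusted p under 0.05 in 2). The closest were Hspa9 at 0.55 (adjusted p = 0.0845, or 0.0368 under the replicate block) and Hspd1 at 0.47 (adjusted p = 0.133), and the count was 1 under the replicate block and 3 without control replicate 1.

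Among genes of mTORC1 and its amino acid sensing, more fell than rose. mTORC1 is the kinase complex that couples amino acid supply to protein synthesis. Of 18 measured, 3 rose and 7 fell, with a median log2 fold change of -0.38, where 8.97% of all genes rose and 9.65% fell. Nprl2 and Nprl3, subunits of the GATOR1 brake on the complex, had log2 fold changes of -0.89 ± 0.14 and -0.43 ± 0.08 (SE, adjusted p = 0.0117 and 0.0189 in limma). Tsc2, another inhibitor, was at -0.74, the mTOR-binding inhibitor Deptor at -0.73 and Sesn3 at -0.87. Rraga, a GTPase that recruits mTORC1 to lysosomes, rose by 0.66. The other genes of this list that passed, named after their values were seen, went both ways. Mtor was at -0.46 and Depdc5 at -0.50, while Rheb was at 0.56 and Rragc at 0.67. With 1 array left out, Depdc5 lost its call in all 6 fits and Mtor in 5. Rheb, Rragc, Nprl3, Deptor and Rraga lost theirs in 4, Tsc2 in 3, and Nprl2 and Sesn3 in 2. Under the replicate block 4 rose and 8 fell, and with sex as a block 1 rose and 3 fell.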

How the data were processed

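The authors deposited a matrix of log2 probe set levels with a column for each array. RMA and Partek are named, without versions, per the submitters' processing notes. Because RMA equalises the arrays' distributions, a global change in RNA amount would not show, and fold changes of dim probe sets are compressed. A genome build for the array values is not stated in these sources. Of 28350 probe sets, 21780 named 1 gene, 1618 several and 4952 none here. Symbols were updated by gene identifier through RefSeq (GRCm38.p6), which matched 21689. Each of 19933 genes was represented by its probe set of highest mean. All 30 measured members had 1 probe set. Dim probe sets were kept.

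For each gene, limma 3.58.1 (R 4.3.3) fitted the group means with lmFit and eBayes, without covariates. Its two-sided p-values were adjusted by Benjamini-Hochberg across the 19933 genes, and 0.05 was the threshold. Fold changes are transgenic minus control. With 3 arrays a group, precision is limited. The labels call the samples biological replicates. The members and lists were chosen with earlier results of these data known. By rule, named genes were all members, Msi1 and Msi2, and from each of 8 related lists up to 6 genes with the lowest p that passed, or otherwise the 2 lowest. The eIF2 kinases, Klhl24, Mtor, Depdc5, Rheb and Rragc were named outside this rule.

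Deviations from the group means correlated by 0.52, 0.41 and 0.13 for arrays with the same replicate number 1, 2 and 3, so pairing by that number was considered. Control replicate 3 correlated more with transgenic replicate 2 (0.32) than with its own number. The block entered as an alternative. The fit was tested on simulated data with 19933 genes, of which 200 were changed. It recovered 77% of those changed by 1 log2 unit and 94% of those changed by 2, with 13 false calls. The simulated noise was independent between genes and arrays, without shifts shared across an array. These rates therefore need not hold in the deposited data, where calls changed with single arrays. Other alternatives were the probe set rule, filters, scaling, variance models, array weights, all probe sets, sex, thresholds and leaving out each array.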

Additional observations from a re-analysis of the deposited data

How the results depend on the processing

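The count of members that rose, 17, ranged from 2 to 21 with 1 array left out, was 9 with sex as a block and was 2 at an adjusted p threshold of 0.01. With the replicate block it was 19, where Slc6a9 and Slc7a1 were added, and the block changed no other call among the members. The count of members that fell was 0 throughout. Over all genes, with 1 array left out 476 to 2663 rose and 476 to 2879 fell, with array weights 3630 and 3442, with sex as a block 1068 and 1091, and at a threshold of 0.01, 395 and 406. At a threshold of 0.1, 2729 rose. With the replicate block 2534 rose and 2605 fell. None of the 68 genes named by rule took the opposite sign in a setting where it was called. A fit with 1 array fewer has less power, so a call lost there need not mean a changed effect. The cause of the losses was not tested. Levels near the silent probe sets, as for Fgf21 and control values of Slc7a3 and Slc7a11, limit what a fold change can show, and the array does not read translation or protein.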
